A study of Mus musculus with 69 samples.

Results

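Oct3/4 repression was examined 72 h after Tet was added to ZHBTc4 cells, a mouse ES cell line derived from CGR8 cells. Both *Pou5f1* alleles of this line are disrupted, so that the *Oct3/4* transgene, which is silent in the presence of Tet, is its only working copy. The 6 arrays that carry the labels of ZHBTc4 cells with Tet at 72 h were taken, of 60 arrays of the time course and 69 of the whole series. On each of them the RNA of 72 h was hybridised against the RNA of 0 h of the same line, and every sample was hybridised once in each dye orientation, so that the mean of 2 arrays is 1 replicate and there are 3 replicates. A gelatin-coated dish of 90 mm received 500000 cells, tetracycline was given at 1 uM, and the medium held LIF throughout and no feeder cells. For comparison, the same cells after 48 h and 96 h of Tet (3 samples each) and ZHTc6 cells 72 h after Tet was withdrawn (3 samples) were used. ZHTc6 cells keep 1 *Pou5f1* allele beside a transgene of the same kind, which is turned on when Tet is removed. ZHBTc4 cells were made from ZHTc6 cells, and each line stands for 1 clone.

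Oct3/4, a POU domain transcription factor encoded by *Pou5f1*, holds ES cells in the undifferentiated state together with Sox2, with which it binds composite sites in the genome. In the blastocyst it is kept in the inner cell mass and lost from the trophectoderm, the epithelium that gives rise to the placenta. Trophectoderm cells carry Gata and caudal-type transcription factors, and the keratins of simple epithelia.

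All values are log2 ratios of 72 h over 0 h unless another quantity is named, and a value of 1 is a doubling. The spread is the SD of the 3 replicates. The words rose and fell are kept for genes for which limma's test against 0 had an adjusted p under 0.05 (Benjamini-Hochberg adjustment over 20619 genes and unnamed oligos). This test pools the spread of the 3 replicates with that of the 3 ZHTc6 samples at 72 h. The members of a dye-swapped pair correlated across oligos with 0.511, 0.528 and 0.669 in replicates 1, 2 and 3, and the replicates correlated with each other from 0.772 to 0.858, where oligos are not independent replicates. The number of arrays limits the precision, and the files hold ratios alone, so that the level of a gene is not known and genes near background could not be removed. Of 5129 named genes many carry names taken from tables of the study, which mostly hold genes that changed on these arrays, so that named genes were called more often than unnamed oligos (62.6% against 32.2%).

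At 72 h 4089 of all features were higher (19.8%) and 4110 were lower (19.9%). Among the named genes 1535 rose (29.9%) and 1675 fell (32.7%). The counts of list members given below are to be read beside these 2 shares. Of the 8199 features called, 6533 had the same sign on all 6 arrays (79.7%). A change of at least 2-fold was seen in 812 of the higher and 715 of the lower features, and one of at least 8-fold in 34 and 31. The median log2 ratio was -0.01 over all features and -0.02 over the named genes. The deposited ratios of each array had a median at or near 0, so that the count of rises against falls does not tell whether RNA as a whole went up or down.

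*Pou5f1* stood at -2.21, -2.87 and -2.27 in replicates 1, 2 and 3. The mean of -2.45 ± 0.366 (standard error 0.31, adjusted p = 0.00116) is 5.47-fold below 0 h. The standard error and p-value draw also on the spread of the ZHTc6 samples, whose *Pou5f1* replicates lay further apart. All 3 ZHBTc4 replicates were lower, as the labels require. Since bulk RNA was measured, fewer cells that express a gene and less RNA per cell cannot be told apart, here and for each gene that follows. All 6 of the ES cell markers that were set for a check of the labels fell, with a median of -2.55. Of 8 measured trophectoderm markers 7 rose and 1 fell, with a median of 3.86. Primitive endoderm markers were mixed (1 rose, 1 fell and 2 did not pass), and markers of fibroblasts could not be checked because none of the 6 has an oligo named here.

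The gene with the largest fall was *Sox2*, which encodes the partner of Oct3/4. Its replicates stood at -4.77, -5.09 and -4.98, and its mean of -4.95 (adjusted p = 1.67e-06) is 30.8-fold below 0 h. *Tcl1*, a coactivator of Akt, stood at -4.39, -4.75 and -4.79. The ratios of both were thus further below 0 than those of *Pou5f1*, with no overlap of replicates. Both genes are named here for the size of their fall. The background of each spot is not known, so that ratios of different oligos need not show RNA loss on the same scale. *Spp1*, which encodes the secreted protein osteopontin, stood at -4.37, -4.54 and -4.60. *Egr1*, an immediate early transcription factor, stood at -3.96, -4.59 and -4.90. *Tdh*, the mitochondrial threonine dehydrogenase on which mouse ES cells rely, stood at -4.20, -4.51 and -4.25. These falls were between 19.9-fold and 22.7-fold. *Tdgf1*, the Nodal co-receptor Cripto, had a mean of -4.13 ± 0.37. *Lefty1*, a secreted inhibitor of Nodal, stood at -3.90, -3.92 and -3.98, the tightest of these replicates. The oligo of *Lefty1* is annotated to *Lefty2* as well, so that both could contribute, and another oligo, annotated to *Lefty1* but named otherwise in tables of the study and left unnamed here, stood at -0.93. The other large falls were those of *Upp1* (-3.78), a uridine phosphorylase, *Otx2* (-3.64), a homeobox gene, *Slc7a3* (-3.62), a carrier of cationic amino acids, *Gli2* (-3.62), a transcription factor of Hedgehog signalling, *A2m* (-3.61), a protease inhibitor, *Lrrc2* (-3.51), *Zfp42* (-3.48), which encodes the ES cell marker Rex1, and *Inhbb* (-3.37), an activin subunit. *A2m* (-2.64, -3.70 and -4.50) and *Inhbb* (-2.91, -2.80 and -4.40) had the widest spread, and in both replicate 3 was the lowest.

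*Nrk*, a kinase gene of the placenta, rose most. Its replicates stood at 4.66, 5.73 and 5.53, a mean of 5.30 ± 0.568 (adjusted p = 9.83e-06), or 39.5-fold above 0 h. *Krt8*, a keratin of simple epithelia, stood at 4.80, 4.71 and 4.85. *Krt18*, its partner in keratin filaments, stood at 4.33, 4.39 and 4.71. Their means were 27.7-fold and 22.3-fold above 0 h, with all 3 replicates of each close together. The homeobox gene *Rhox6* stood at 4.72, 4.60 and 4.73. *Igf2*, an imprinted growth factor, stood at 4.29, 4.43 and 4.65. The zinc finger regulators of the trophectoderm were close to each other. *Gata2* stood at 3.99, 4.13 and 4.27 and *Gata3* at 3.95, 3.96 and 4.38. Further large rises were those of *Krt19* (4.39), *Fgfbp1* (4.19), a carrier of secreted FGFs, *Irx3* (4.13), a homeobox gene, *Anxa1* (3.98), a calcium-dependent membrane-binding protein, *3830417A13Rik* (3.71), *Dppa1* (3.67), *S100a6* (3.65), a small calcium-binding protein, and *Krt7* (3.61). *Dppa1* had the widest spread of these genes (SD 1.03), with replicate 1 at 2.49 and the others at 4.15 and 4.38. Over these 30 genes the SD had a median of 0.211, and 4 genes were above 0.5 (*Nrk*, *Dppa1*, *A2m* and *Inhbb*).

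**Figure D1:**
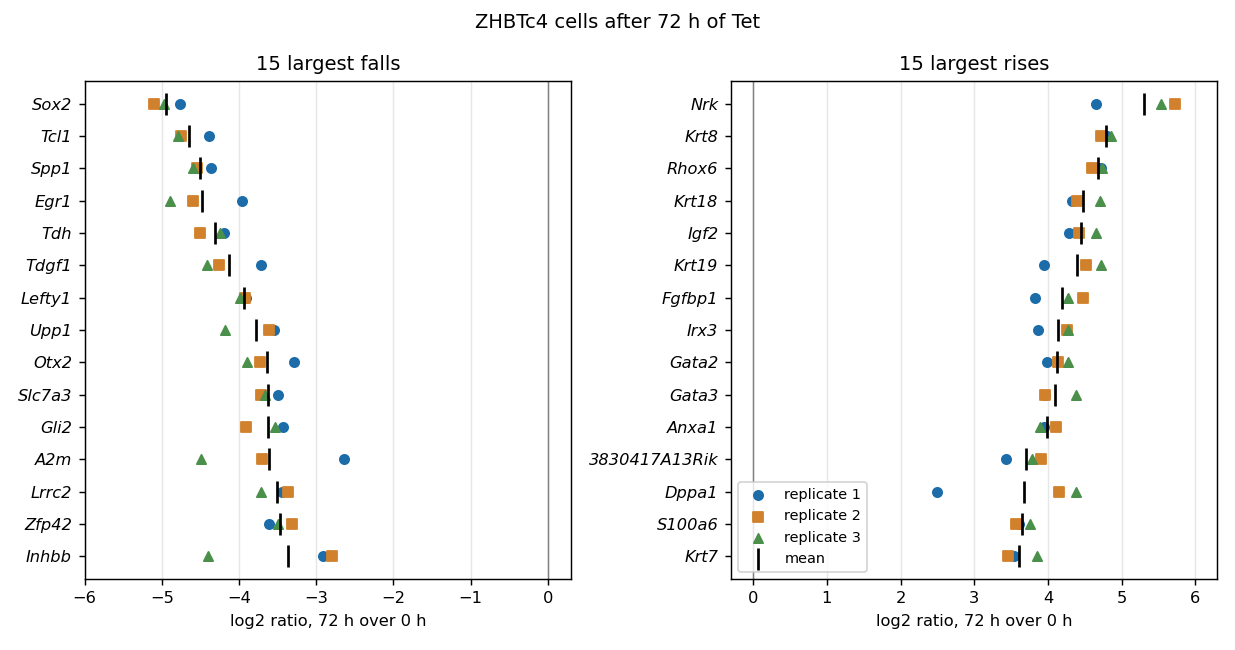
Log2 ratio of 72 h over 0 h (x axis) in ZHBTc4 cells for the 15 named genes with the largest fall (left) and the 15 with the largest rise (right), each with its 3 replicates and their mean. The means run from -4.95 (*Sox2*) to -3.37 (*Inhbb*) and from 5.30 (*Nrk*) to 3.61 (*Krt7*), and replicate 1 of *Dppa1* and *A2m* stands nearer to 0 than the others.

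Of 22 listed core and naive pluripotency factors 17 were measured, of which 16 fell and none rose (median -1.84, range -4.95 to 0.17). By the annotation of the arrays alone 7 of the 17 are named, and all 7 fell. *Nanog*, a homeobox gene of the naive state, stood at -2.30, -2.48 and -2.21. *Klf4*, a Krüppel-like factor, stood at -2.75, -3.02 and -3.29, and *Esrrb*, an orphan nuclear receptor, at -1.67, -1.90 and -1.96. All replicates of these 3 genes were thus well below 0, but the values of *Esrrb* are means of an oligo at -3.38 and one at -0.31. *Klf5* (-1.88) and *Tbx3* (-1.42), which uphold self-renewal, fell as well, and so did *Rif1* (-2.07), which takes part in telomere maintenance and replication timing. The oligos of *Rif1* stood at -2.65 and -1.49, and with names from the annotation alone its value was -0.96. *Tfcp2l1* had a mean of -1.13 over oligos at -2.13 and -0.14, and the latter did not pass by itself (adjusted p = 0.0838). *Nr5a2*, a nuclear receptor, fell by 0.93 with replicate 3 (-1.54) apart from the others (both -0.63). *Rest* (-0.69) and *Sall4* (-0.81) had the smallest falls, and the 4 oligos of *Sall4* ran from -1.63 to 0.00. *Sox15*, a relative of *Sox2*, stood at 0.04, 0.26 and 0.23 (adjusted p = 0.0765), and was the lone member that did not pass. Of 27 listed ES cell markers 20 were measured, of which 19 fell and 1 rose (median -2.59). Here the annotation alone names 9 of the 20, of which 8 fell and 1 rose. *Dppa5a* stood at -2.77, -3.03 and -2.68 and *Gdf3*, a TGF-beta family ligand, at -2.34, -2.65 and -2.58. Further members were *Kit* (-2.94), the receptor of stem cell factor, *Ly75* (-3.13), *Fbxo15* (-2.66), an F-box gene, and *Trh* (-3.04), the prohormone of thyrotropin-releasing hormone. The member that rose was *Slc2a3*, a glucose transporter (0.52, adjusted p = 0.00118).

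The motif ATGCAAAT, the octamer of POU factors, and TTGTNATGC, a Sox and Oct site with 1 free base, were searched on both strands in 32851 windows from 250 bases before to 50 after the start of each transcript (RefSeq, GRCm38.p6). The octamer was found in 1.74% of the windows and the composite site in 0.731%, and either in 2.44%. Of the 55 genes of the pluripotency factor, ES cell marker and keratin lists that passed the test, 34 had a window and 3 of these held a motif. They are printed because their windows hold a motif, and are *Nanog* (log2 ratio -2.33), *Zfp42* (-3.48) and *Spp1* (-4.50). Each is the 250 bases before the start, 5′ to 3′ on the strand of the gene, with the motif in capitals. That of *Nanog* (chr6:122707315-122707564, plus strand) holds the composite site on the opposite strand, with its first base 148 bases before the start. The window of another *Nanog* start (chr6:122707239-122707488), not printed, holds the same site 72 bases before that start. That of *Zfp42* (chr8:43307010-43307259, minus strand) holds the octamer on the opposite strand, 186 bases before the start, and that of *Spp1* (chr5:104435942-104436191, plus strand) holds it on the same strand, 210 bases before. A match of letters is a description and shows no binding.
Nanog: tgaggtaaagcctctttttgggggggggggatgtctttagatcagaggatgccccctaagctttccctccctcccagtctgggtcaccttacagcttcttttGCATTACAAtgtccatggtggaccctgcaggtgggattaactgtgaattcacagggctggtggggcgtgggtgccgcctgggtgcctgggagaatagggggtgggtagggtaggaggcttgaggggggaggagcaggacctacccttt
Zfp42: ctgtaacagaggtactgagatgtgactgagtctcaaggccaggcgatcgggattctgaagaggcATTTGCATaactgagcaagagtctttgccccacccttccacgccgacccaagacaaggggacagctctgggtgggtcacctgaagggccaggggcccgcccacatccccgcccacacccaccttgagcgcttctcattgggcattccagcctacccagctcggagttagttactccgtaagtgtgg
Spp1: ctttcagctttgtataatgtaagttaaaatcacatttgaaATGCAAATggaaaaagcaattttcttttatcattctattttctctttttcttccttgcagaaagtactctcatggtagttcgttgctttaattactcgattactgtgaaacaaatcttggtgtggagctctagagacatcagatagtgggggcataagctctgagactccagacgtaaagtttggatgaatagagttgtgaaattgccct

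Genes of LIF and Stat3 signalling moved both ways (6 of 10 measured fell, 3 rose, median -0.42). *Socs3*, a feedback inhibitor that Stat3 induces, stood at -1.69, -1.83 and -1.71. *Socs2* fell by 2.10 (oligos from -3.06 to -1.21) and *Lifr*, the LIF receptor subunit, by 1.77 (oligos at -2.82 and -0.71), while *Stat3* itself fell by 0.37. The kinases *Jak1* (1.04) and *Jak2* (1.71 ± 0.458) and the phosphatase *Ptpn11* (0.82) rose. In Nodal and BMP signalling 6 of 16 measured genes fell and 6 rose, with a median of 0.03. Beside *Tdgf1*, *Lefty1* and *Inhbb*, *Pcsk6*, a convertase of Nodal precursors, fell by 1.92, *Bmp4*, a ligand, by 0.88 and *Acvr1b*, a type I receptor, by 0.66. *Id2*, a BMP-responsive inhibitor of bHLH factors, stood at 3.42, 3.72 and 3.62. The BMP receptor *Bmpr1a* stood at 0.81, 3.21 and 1.13, so that its mean of 1.72 rests largely on replicate 2. The smaller rises of *Bmpr2* (0.37), *Smad5* (0.36) and *Smad1* (0.33) were not secure, since each lost the call without replicate 3. *Bmpr2* stood at -0.14 on the arrays with 72 h in Cy3. The oligos of *Smad5* stood at 1.03 and -0.31, and both passed by themselves. In FGF and ErbB signalling 6 of 14 fell and 4 rose (median 0.02). Over all named genes 32.7% fell and 29.9% rose, and neither the Nodal and BMP list nor this one stood far from these shares. The ETS factors *Etv5* (-2.98) and *Etv4* (-0.66), the feedback inhibitors *Spry4* (-0.75) and *Dusp4* (-0.74) and the early gene *Fos* (-1.39, oligos at -2.09 and -0.68) fell with *Egr1*. The receptors *Fgfr2* (0.93), *Fgfr1* (0.58) and *Erbb3* (0.48) rose with *Fgfbp1*, though *Erbb3* did not pass on the arrays with 72 h in Cy5 (0.20).

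Of 24 listed trophectoderm transcription factors 13 were measured, of which 9 rose and 1 fell (median 1.47). The annotation of the arrays by itself names 5 of the 13, of which 1 rose and 1 fell, and the others are named through tables of the study that mostly hold changed genes. *Esx1*, a homeobox gene of the placenta, stood at 2.68, 3.16 and 3.24, and *Tfap2c*, the AP-2 factor of the trophoblast, at 2.12, 1.97 and 1.98. *Klf6* (2.21), *Msx2* (1.47), *Dlx3* (1.24) and *Grhl1* (0.53) rose as well. *Hand1*, a bHLH factor of trophoblast giant cells, stood at -0.19, -0.14 and -0.30 (adjusted p = 0.0278). Its small fall did not pass without replicate 1 (adjusted p = 0.0611) or 3 (0.111), or without ZHTc6 replicate 1 (0.0516), 2 (0.0662) or 3 (0.0592). *Ascl2*, a bHLH factor of the spongiotrophoblast, stood at 0.19, -1.08 and -0.56 (adjusted p = 0.127), so that its replicates lay on both sides of 0. *Hopx* (0.02, adjusted p = 0.834) and *Tfap2a* (0.04, adjusted p = 0.897) did not pass. *Cdx2* and *Eomes* have no oligo named here and were not analysed.

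Of 28 listed placental lineage genes 20 were measured, of which 19 rose and none fell (median 1.99). By the annotation of the arrays alone 7 of the 20 are named, of which 6 rose. The others are named through tables of the study that mostly hold changed genes. *Sct*, which encodes secretin, stood at 3.22, 3.50 and 3.84. *Ndrg1*, a stress-responsive gene of the trophoblast, stood at 2.97, 2.90 and 3.08, and the carbonic anhydrase *Car2* at 2.64, 2.81 and 2.52. Their means were 11.5-fold, 7.93-fold and 6.32-fold above 0 h. Transport genes were among the members, with rises of the glucose transporter *Slc2a1* (2.37), the amino acid transporter *Slc38a4* (1.88) and the fatty acid binding protein *Fabp3* (2.10). *Plac8* (2.55 ± 0.622) and *Plac1* (2.17), named after the placenta, the VEGF receptor *Flt1* (1.58), the prolactin receptor *Prlr* (1.37) and *Peg10* (1.45), an imprinted gene of retrotransposon origin, rose too. The oligos of the nuclear receptor *Pparg* disagreed, with 3.42 on one and 0.01 on the other (adjusted p = 0.939), so that its mean of 1.72 stands for neither. *Mmp9*, a gelatinase of invading trophoblast, stood at 0.00, 0.32 and 0.45 (adjusted p = 0.0873), and was the lone member that did not pass.

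Of 27 listed keratin and junction genes 20 were measured, of which 17 rose and 2 fell (median 1.43). Only 7 of the 20 are named by the annotation of the arrays alone, of which 5 rose and 1 fell. Beside the 4 keratins, *Cldn3*, a claudin of tight junctions, rose by 2.09. Desmosomes were represented by *Pkp2* (1.84), *Dsc2* (1.80) and *Dsp* (1.40). *Cdh1*, the E-cadherin of adherens junctions, stood at 0.89, 1.05 and 1.06, and *Epcam* at 0.49, 0.48 and 0.36. Both had thus risen, but by far less than the keratins. *Tjp1*, a scaffold protein of tight junctions, stood at 1.13, 2.07 and 1.16, while the tight junction protein *Ocln* fell by 0.53 (adjusted p = 0.0184). The fall of *Ocln* was not secure, since it did not pass without replicate 1 (-0.45) or 3 (-0.40), and the arrays with 72 h in Cy5 gave 0.12 against -1.18 with Cy3. *Dsg2* stood at 0.05 (adjusted p = 0.691).

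Of 32 listed genes of the actin cytoskeleton, annexins and S100 proteins 26 were measured, of which 24 rose and none fell (median 1.78). Just 8 of the 26 are named by the annotation of the arrays alone, of which 7 rose. *Anxa3* stood at 3.25, 3.58 and 3.42 and *Anxa2* at 2.75, 3.05 and 3.21, while *Anxa6* stood at 0.13 (adjusted p = 0.123). The actin-binding genes *Cnn2* (2.87), *Tpm4* (2.66), *Tagln2* (2.54), *Tpm2* (2.49) and *Zyx* (2.38), and *S100a11* (2.32), rose strongly. *Acta2*, the actin of smooth muscle, stood at 1.77, 1.62 and 1.72. *Vim*, the intermediate filament of mesenchymal cells, did not pass (0.07, adjusted p = 0.526). Among 21 measured genes of the extracellular matrix, integrins and proteases 12 rose and 3 fell (median 0.42). The galectin *Lgals1* (3.42), the matrix protein *Thbs1* (2.66), the protease inhibitor *Serpine2* (2.58) and the integrin subunit *Itgb1* (1.99) rose. *Fn1*, which encodes fibronectin, stood at -1.52, -1.76 and -2.02, with its 3 oligos from -2.46 to -0.59. *Col18a1* (-1.03) and *Mmp2* (-1.15) also fell, though *Mmp2* did not pass on the arrays with 72 h in Cy5 (-0.46).

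**Figure D2:**
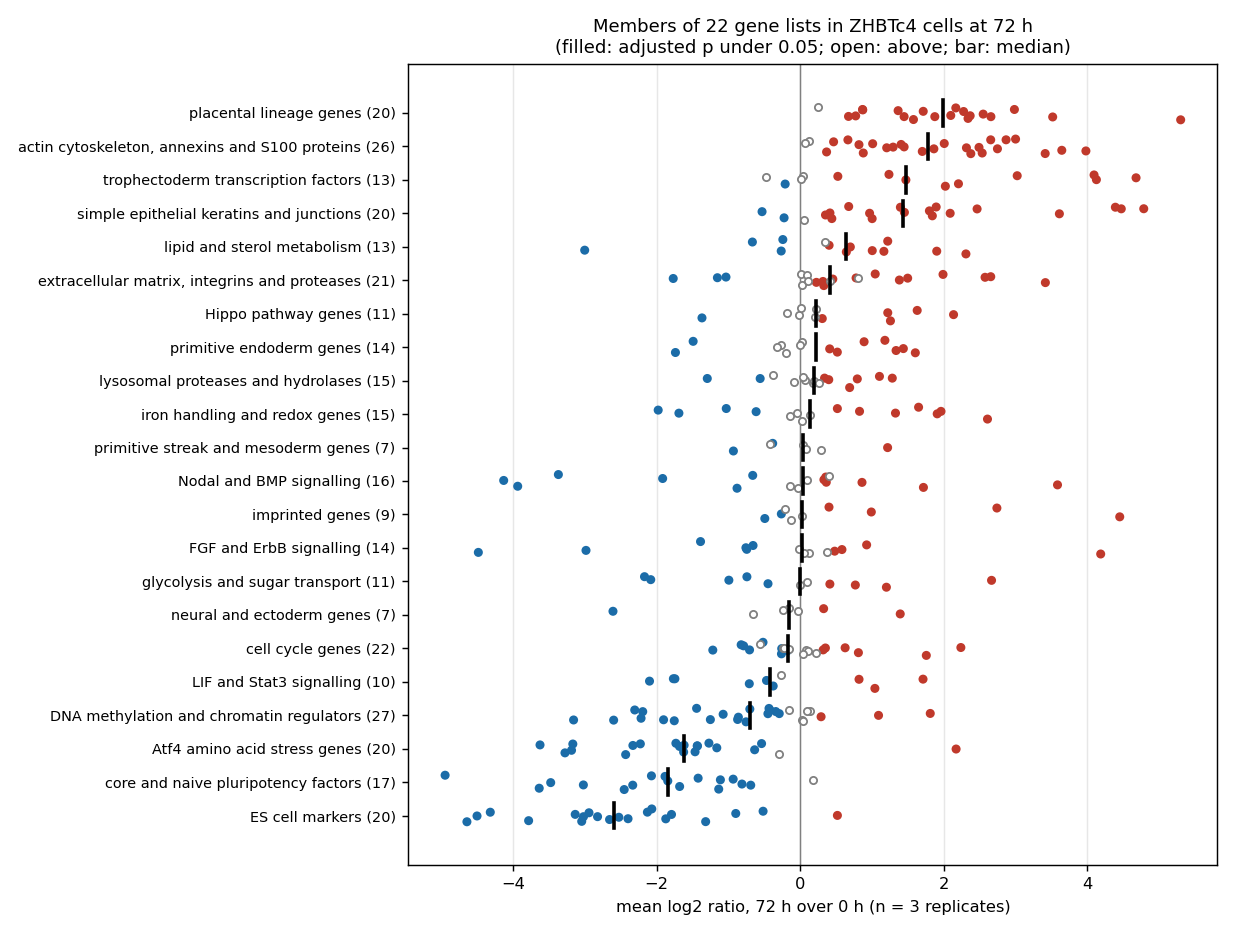
Mean log2 ratio of 72 h over 0 h (x axis, n = 3) of each measured member of 22 gene lists in ZHBTc4 cells, with the number of members in brackets. Filled points passed the test (red higher, blue lower), open points did not, and the bar is the median of the list, from -2.59 (ES cell markers) to 1.99 (placental lineage genes).

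Of 14 measured primitive endoderm genes 7 rose and 2 fell (median 0.22), where 29.9% of all named genes rose and 32.7% fell. The basement membrane genes *Lamb1* (1.61), *Col4a1* (1.44) and *Col4a2* (1.34) rose, whereas *Lama1* (-1.74) and *Lamc1* (-1.49 ± 0.59) fell, so that laminin chains went in opposite directions. *Gata6*, a regulator of the endoderm, stood at 0.54, 1.02 and 1.12 (adjusted p = 0.00143). *Gata4* (-0.20, adjusted p = 0.386) and *Sox17* (0.03, adjusted p = 0.809) did not pass. Of 7 primitive streak and mesoderm genes 1 rose, *Snai1* (1.22), and 2 fell, *Gsc* (-0.93) and *Twist1* (-0.38). The call of *Gsc* was lost on the arrays with 72 h in Cy5 (-0.61, adjusted p = 0.0521) and that of *Twist1* without replicate 1 (-0.31) or 3 (-0.37). *Mesp1* stood at -0.34, 0.26 and 0.21 (adjusted p = 0.868). Of 7 neural and ectoderm genes 2 rose, *Mbp* (1.40), a myelin gene, and *Sox11* (0.33), and 1 fell, *Stmn2* (-2.61), a microtubule regulator of neurons. The 4 oligos of *Sox11* ran from 0.00 to 0.78, and its call was lost without replicate 1 (0.26) or 3 (0.31), and without replicate 1 the neural list had 1 gene higher and 2 lower. *Pax6* stood at -0.82, 0.00 and -1.15 (adjusted p = 0.126).

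Of 20 measured Atf4 amino acid stress genes, many of which take up, make or charge amino acids, 18 fell and 1 rose (median -1.62). *Trib3*, a pseudokinase induced by Atf4, stood at -3.30, -3.11 and -3.42. *Cth*, which makes cysteine, fell by 3.17 ± 0.189, and the asparagine synthetase *Asns* at -2.22, -2.28 and -2.48. *Atf4* itself stood at -1.56, -1.62 and -1.66, and all replicates of the former genes were below these. *Phgdh* (-1.68), *Psat1* (-2.23) and *Psph* (-1.43), the enzymes of serine synthesis, fell together with the tRNA synthetases *Sars* (-1.73), *Gars* (-1.62) and *Aars* (-1.46). *Atf3*, a stress-induced transcription factor, rose to 2.17 (adjusted p = 0.00137), and *Sesn2* stood at -0.29 (adjusted p = 0.07). The annotation of the arrays by itself names 1 of these 20 genes, and the others are named through tables of the study.

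In the list of DNA methylation and chromatin regulators 27 genes were measured, with 19 lower and 3 higher (median -0.70). By the annotation of the arrays alone 16 of the 27 are named, of which 11 fell and 1 rose. *Tet1*, which oxidises 5-methylcytosine, stood at -2.93, -3.21 and -3.33, and *Tet2* at -1.70, -2.38 and -2.49. *Jarid2*, a partner of polycomb complex PRC2, stood at -2.55, -2.60 and -2.64 on an oligo named through tables of the study, while an oligo annotated to *Jarid2*, which those tables name otherwise, stood at -0.48. The histone demethylases *Kdm3a* (-2.30), *Kdm5b* (-2.22) and *Kdm4c* (-1.75) and the corepressor *Trim28* (-1.90) fell. So did *Dnmt3l* (-2.07), a cofactor of de novo methylation, which is counted among the ES cell markers and not in this list. The PRC2 subunits *Eed* (-1.25) and *Suz12* (-0.70) fell as well. The 3 genes that rose were *Cbx8* (1.81), *Chd1* (1.09) and *Dnmt1* (0.29), the maintenance methyltransferase. *Dnmt3b* stood at 0.09, -0.04 and 0.02 (adjusted p = 0.76), so that no change was detectable there with 3 replicates.

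Of 22 measured cell cycle genes 8 fell and 6 rose (median -0.16), near the shares of all named genes (32.7% fell, 29.9% rose). The replication genes *Mcm6* (-1.22), *Mcm2* (-0.82) and *Pcna* (-0.70) and the cyclin *Ccnd2* (-0.79) fell, whereas *Ccne2*, a cyclin of the G1/S transition (2.24 ± 0.578), *Myc* (1.76), *Mki67* (0.81), a marker of proliferation, and *Cdkn1a* (0.63), an inhibitor of cyclin-dependent kinases, rose. The balance of this list rests on replicate 3, without which 6 were higher and 5 lower. Sugar metabolism was split as well (4 of 11 rose, 5 fell). The monocarboxylate transporter *Slc16a1* stood at 2.34, 2.89 and 2.77, whereas the kinase of pyruvate dehydrogenase *Pdk1* fell by 2.08 ± 0.0775 and *Pfkp* stood at -2.20, -1.99 and -2.31. Of 13 lipid and sterol genes 8 rose and 4 fell (median 0.65). *Insig1*, a regulator of sterol synthesis, rose by 1.90 ± 0.352, and *Apoe*, an apolipoprotein, stood at -2.75, -3.22 and -3.04. Of 15 iron and redox genes 7 rose and 4 fell (median 0.13). The iron exporter *Slc40a1* (2.61), the importer *Slc11a2* (1.96) and the transferrin receptor *Tfrc* (1.91) rose alike, while *Txnip* (-1.98) and *Prdx1* (-1.69) fell. Catalase, encoded by *Cat*, stood at 1.48, -0.12 and -1.77 (adjusted p = 0.867), the widest spread of any list member, with its replicates on both sides of 0.

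Among 9 measured imprinted genes 4 rose and 2 fell (median 0.03), where 29.9% of all named genes rose and 32.7% fell. *Peg3*, a zinc finger gene, stood at 2.66, 2.73 and 2.83, and *Sgce* had a mean of 0.99 over oligos at 1.84 and 0.14. *Gnas* rose by 0.40 (adjusted p = 0.0273). *Dlk1* (-0.49) and *Meg3* (-0.26), which lie in 1 imprinted cluster, fell. The call of *Gnas* was lost without replicate 2 (0.34) or 3 (0.39) or without ZHTc6 replicate 3 (adjusted p = 0.0519), and that of *Meg3* without any 1 of the 6 samples (log2 ratios of -0.32, -0.15 and -0.32 without ZHBTc4 replicates 1, 2 and 3, and adjusted p of 0.0727, 0.0792 and 0.0787 without ZHTc6 replicates 1, 2 and 3). In the Hippo pathway 5 of 11 rose and 1 fell (median 0.23). The coactivators *Yap1* (1.63, oligos at 2.52 and 0.74) and *Wwtr1* (1.26) and the scaffold genes *Amot* (2.14) and *Amotl2* (1.22) rose, and *Nf2*, which encodes Merlin, stood at -1.21, -1.19 and -1.70. Of 15 lysosomal genes 6 rose and 2 fell (median 0.20), with *Ctsb* (1.28) and *Ctsz* (1.11), cathepsins, highest.

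The difference between 72 h and 48 h was tested next, to see which genes were still moving. Both time points share the 0 h RNA, so that their levels were set against each other by a contrast in 1 fit of the 15 ZHBTc4 samples. The ratio was higher at 72 h in 458 features (2.22%) and lower in 231 (1.12%). With the number of the replicate as a block, since samples of 1 number share the 0 h RNA, 973 were higher and 754 lower, and these held all 689 of the former calls. Without replicates 1, 2 and 3 the count was 250, 73 and 38. *Pou5f1* (-1.91, -2.58 and -2.01 at 48 h) was lower at 72 h in each pair of 1 number, with differences of -0.30, -0.29 and -0.26, and the mean of -0.28 did not pass (adjusted p = 0.804, and 0.564 with the block). *Sox2* stood at -3.10, -3.29 and -3.44 at 48 h, and its difference of -1.67 (standard error 0.127, adjusted p = 2.42e-05) was the largest of the falls. *Nanog* went from a mean of -1.59 to -2.33 (adjusted p = 0.0151), which did not pass without any 1 replicate (adjusted p from 0.123 to 0.199). *Spp1* went from -3.01 to -4.50 (difference -1.49) and *Tet1* from -1.73 to -3.16 (difference -1.43).

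*Slco4a1*, an organic anion transporter, stood at -0.15, -0.04 and -0.31 at 48 h and at 1.94, 2.34 and 2.20 at 72 h. *Myl4*, a myosin light chain, stood at 0.14, -0.04 and 0.01 and then at 2.17, 2.08 and 2.18. The replicates of both genes lay around 0 at 48 h and near 2 at 72 h. These genes and those that follow here are named for the size of their difference, which favours replicates that stand apart. *Anxa1* rose from a mean of 1.85 to 3.98 (difference 2.13), *Sct* from 1.40 to 3.52 (2.12), and *Lgals3*, which encodes galectin-3, from 0.39 to 2.28 (1.89). *Myof*, a ferlin of membrane repair, was below 0 h at 48 h (-1.75) and stood at 0.38 at 72 h (2.13). *Exoc3l4* had the largest difference (3.37, standard error 0.547), with replicates of 0.47, -1.29 and 0.80 at 48 h. *Nrk* (1.84), *Csf1* (1.86), a macrophage growth factor, and *Rsad2* (1.89), an interferon-induced gene, were also higher at 72 h. *Gata6*, in contrast, stood at 1.79, 2.56 and 2.06 at 48 h, above each of its replicates at 72 h, and its difference was -1.24 (adjusted p = 0.00759). *Gli1* (-1.59), the Hedgehog target, *Igfbp2* (-1.41), which binds insulin-like growth factors, *Mllt6* (-1.36), *Anp32a* (-1.20), *Col18a1* (-1.18) and *Tmem231* (-1.15) were lower too. Of these 20 genes 3 lost the call without replicate 1, 8 without replicate 2 and 10 without replicate 3 (adjusted p up to 0.221, 0.255 and 0.574), and *Slco4a1*, *Anxa1*, *Sct*, *Myl4*, *Lgals3* and *Igfbp2* kept it in each alternative tried. Without replicate 3 *Gata6* stood at -1.39 (adjusted p = 0.189), *Nrk* at 1.65 (0.269), *Exoc3l4* at 3.61 (0.103), *Csf1* at 1.57 (0.102), *Rsad2* at 1.65 (0.574), *Gli1* at -1.51 (0.127), *Tet1* at -1.41 (0.0533), *Anp32a* at -1.13 (0.2), *Col18a1* at -1.20 (0.0774) and *Tmem231* at -1.13 (0.0895).

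By lists, 13 of 26 cytoskeletal genes, 10 of 20 keratin and junction genes, 9 of 20 placental genes and 6 of 21 matrix genes were higher at 72 h than at 48 h, and 5 of 20 ES cell markers and 4 of 17 pluripotency factors were lower. Over all features the shares were 2.22% higher and 1.12% lower. List members are named genes, which were called more often than unnamed oligos at 72 h. No share of named genes was taken for this step, so that the lists cannot be set against it. *Krt8* went from a mean of 3.79 to 4.79 (difference 1.00, adjusted p = 0.000178). A few genes that stood above 0 h at 48 h did not differ detectably from it at 72 h. *Vim* went from 1.15 to 0.07 (difference -1.09, adjusted p = 0.00749), *Fth1*, the heavy chain of ferritin, from 0.98 to 0.13 (-0.85, adjusted p = 0.000289) and *Dnmt3b* from 0.55 to 0.02 (-0.53, adjusted p = 0.00431). These 3 were chosen after their values were seen, and the differences of *Vim* and *Dnmt3b* did not pass without any 1 replicate (adjusted p from 0.0598 to 0.204 and from 0.0745 to 0.22), nor that of *Fth1* without replicate 3 (0.0548).

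From 72 h to 96 h 172 features were higher (0.834%) and 66 lower (0.32%). With the replicate block 795 were higher and 405 lower, and these held all 238 of the former calls. With arrays brought to 1 spread the split turned, with 5 higher and 9 lower, and it turned as well without replicate 1 (1 higher, 6 lower), 2 (3 and 5) or 3 (0 and 3). *Igfbp4*, which binds insulin-like growth factors, went from 0.82, 0.63 and 0.86 to 2.02, 2.02 and 2.03. *Cdh3*, the P-cadherin of the placenta, went from 0.08, -0.28 and -0.06 to 1.34, 1.04 and 1.14. *Prl2a1*, of the prolactin family of the placenta, went from 0.32, -0.13 and 0.35 to 1.68, 1.59 and 1.35. In these 3 genes no replicate overlapped between the time points, but they are named for the size of their difference, which favours this. *Prkce* (1.61), a protein kinase C, *Crim1* (1.48), *Serpinb6b* (1.42), *Smoc2* (1.19), *Myl4* (1.14), *Rab8a* (1.11), a small GTPase, and *Vdr* (1.07), the vitamin D receptor, were also higher at 96 h. *Zscan4c*, of a cluster of near-identical genes whose transcripts an oligo may not tell apart, went from a mean of -0.27 to -1.81 (difference -1.54). *LOC434660* (-1.65) and *LOC627488* (-1.42) were lower as well, and so were *Fbxo15* (-1.05), *Spp1* (-0.98), *Cbr3* (-0.84), *Mt2* (-0.79), a metallothionein, *Bzw2* (-0.78), *Tet1* (-0.75) and *Zfp566* (-0.75). *Sox2* went from -4.95 to -5.58 (difference -0.63, adjusted p = 0.0346), which did not pass without replicate 1, 2 or 3 (adjusted p = 0.335, 0.261 and 0.385) and became 0.24 with arrays brought to 1 spread. *Pou5f1* differed by -0.29, with -0.57, -0.17 and -0.15 in the pairs (adjusted p = 0.838, and 0.559 with the block). All 20 genes with the largest differences lost the call without replicate 3 (adjusted p from 0.0694 to 0.407), 16 without replicate 1 and 16 without replicate 2. *Igfbp4* and *LOC627488* kept it without replicate 1 or 2, and the difference of *Igfbp4* was 1.29 without replicate 3.

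**Figure D3:**
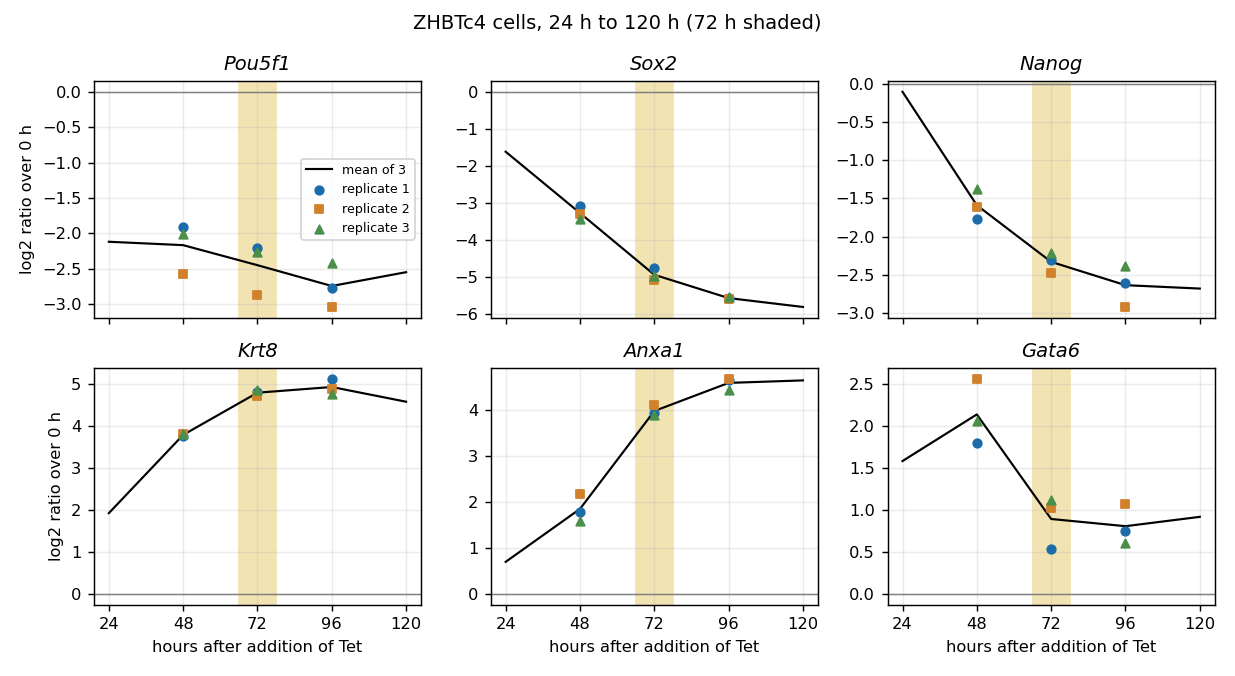
Log2 ratio over 0 h (y axis, 1 scale for each gene) of 6 genes in ZHBTc4 cells against hours after the addition of Tet, with the mean of 3 replicates at each time point as a line and the replicates of 48 h, 72 h (shaded) and 96 h as points. *Sox2* and *Anxa1* moved by -1.67 and 2.13 between 48 h and 72 h, *Pou5f1* by -0.28, and *Gata6* went down from 2.13 to 0.89.

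ZHTc6 cells at 72 h served to compare repression with induction of *Oct3/4*. *Pou5f1* stood at 1.30, 1.56 and -0.07 in these cells, so that replicate 3 did not show the induction. The ratio over 0 h was higher in ZHBTc4 cells in 2700 features (13.1%) and lower in 2326 (11.3%), in limma's contrast of the lines. Without ZHTc6 replicates 1, 2 and 3 the count of 5026 became 3469, 3209 and 3242. Each line was set against its own 0 h RNA, and from these ratios unequal levels before the change of Tet cannot be told apart from unequal responses. The series also holds arrays of the 0 h RNA of both lines against a reference, which were not used here. *Pou5f1* differed by -3.38 (standard error 0.439, adjusted p = 0.00249). *Lefty1* had the largest difference (-5.43, standard error 0.0833), since its replicates stood between 1.40 and 1.58 in ZHTc6 cells, the opposite direction. *Trh* stood at 1.16, 1.31 and 1.30 there and at -2.43, -3.20 and -3.50 in ZHBTc4 cells. *Cpe*, an enzyme of prohormone processing, stood at 0.81, 0.82 and 1.15 against -2.44, -3.52 and -2.89. *Cth* had a mean of 0.73 against -3.17. These 4 genes were thus above 0 h in every replicate of the one line and below it in every replicate of the other. They are named for the size of their difference, which favours this. *Egr1* (difference -4.06), *Tdgf1* (-3.99), *Sox2* (-3.98), *Slc7a3* (-3.59) and *Tcl1* (-3.34) had lower ratios in ZHBTc4 cells too. *Sox2* was below 0 h in both lines, with -1.10, -1.08 and -0.72 in ZHTc6 cells.

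The rises of *Nrk* (difference 5.36), *Rhox6* (5.15), *Igf2* (4.18), *Anxa1* (4.16), *Gata2* (4.16), *Gata3* (4.02), *Dppa1* (3.99), *3830417A13Rik* (3.74), *S100a6* (3.66) and *Ndrg1* (3.34) were larger in ZHBTc4 cells. *Nrk* stood at 0.02, -0.25 and 0.05 in ZHTc6 cells and *Gata2* had a mean of -0.03 there, whereas *Krt8* stood at 1.83, 1.80 and 1.91. All 3 keratin replicates of ZHTc6 cells were thus above 0 h, and all were below those of ZHBTc4 cells (difference 2.94, adjusted p = 2.4e-05, and 1.85 with arrays brought to 1 spread). Of 20 placental genes 19 had a higher ratio in ZHBTc4 cells, of 26 cytoskeletal genes 20, of 20 keratin and junction genes 15, and of 13 trophectoderm factors 9. A lower ratio was found in 18 of 20 amino acid stress genes, 15 of 20 ES cell markers and 12 of 17 pluripotency factors. Over all features 13.1% were higher and 11.3% lower, and no share of the named genes by themselves was taken here. With arrays brought to 1 spread 8 pluripotency factors had a lower ratio and 10 keratin and junction genes a higher one. *Rif1* (difference -0.13, standard error 0.199, adjusted p = 0.712) and *Tbx3* (0.20, standard error 0.086, adjusted p = 0.154) had ratios that were not distinguishable between the lines, and *Klf4* differed by -1.17 (adjusted p = 0.00227), or by -0.06 (adjusted p = 0.923) with arrays brought to 1 spread. *Mesp1* (-1.86, or -2.91 with arrays brought to 1 spread) and *Gsc* (-2.60), which mark the primitive streak, had lower ratios in ZHBTc4 cells, where *Gsc* fell, while both stood between 1.36 and 2.14 in the replicates of ZHTc6 cells. *Rif1*, *Tbx3*, *Klf4*, *Mesp1* and *Gsc* were chosen here after their values were seen.

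**Figure D4:**
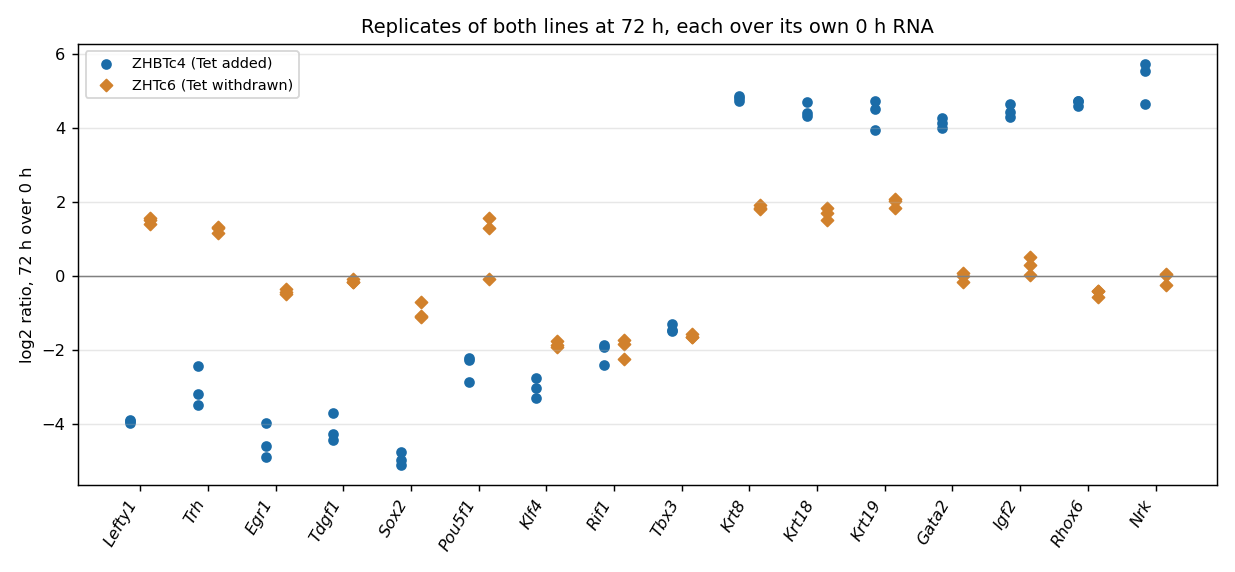
Log2 ratio of 72 h over 0 h (y axis) of 16 genes in the 3 replicates of ZHBTc4 cells with Tet added (circles) and of ZHTc6 cells with Tet withdrawn (diamonds), each over the 0 h RNA of its own line. *Lefty1*, *Trh* and 2 of 3 replicates of *Pou5f1* lie on opposite sides of 0 in the lines, *Rif1* and *Tbx3* overlap or lie close together, and *Nrk*, *Rhox6* and *Gata2* have means of 5.30, 4.68 and 4.13 in ZHBTc4 cells and lie near or below 0 in ZHTc6 cells.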

How the data were processed

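RNA of each time point and of 0 h was amplified, labelled with Cy3 and Cy5 and hybridised to a 60-mer oligo array of 22575 rows (NIA Mouse 22K). The authors processed the scans with Agilent Feature Extraction, per the submitters' processing notes, and deposited log10 ratios of Cy5 over Cy3 bounded at 2 in size. Its version and its background and dye settings are not given in the sources used here, and either could shrink ratios of weak spots. Values were turned to log2 of the time point over 0 h and the 2 arrays of a dye-swapped pair were averaged. Left out were 218 rows below the lowest annotated oligo number and 211 at a bound on over 0.5 of the arrays, and 22146 oligos were kept. Oligos of 1 gene were averaged, which gave 20619 features. Of 1176 genes with more than 1 oligo, 114 had oligos called in both directions at 72 h when each oligo was tested. The list members *Smad5*, *Top2a* and *Glb1* were among them, so that their means stand for no single oligo. The platform annotation gave 1 gene for 4265 rows, several for 6819 and none for 11491, and tables of the study were used for names only. No column of other samples was present. An exact 0 on any of the 6 arrays was found for 711 oligos.

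limma 3.58.1 (R 4.3.3, lmFit and eBayes) was fitted to 3 ZHBTc4 and 3 ZHTc6 samples at 72 h, each line with its own mean, and to the 15 ZHBTc4 samples for the steps between time points. It was tested on simulated data with independent normal noise. For each comparison 67 of 20619 features were changed by 0.5, 67 by 1 and 66 by 2 on the log2 scale. Of those changed by 1, 82.1% were called at 72 h, 65.7% and 71.6% in the steps to and from 72 h and 37.3% between the lines (at 0.5, 28.4%, 19.4%, 32.8% and 1.49%). In the data more features were called than were changed in the simulation, and same-numbered samples were not independent. These shares therefore need not hold for the tests of the data. The methods describe the samples as independent, and p-values measure the spread between these samples. Same-numbered samples share the 0 h RNA by the labels, and their deviations correlated from 0.0983 to 0.511 (median over different numbers -0.161). Named were *Pou5f1*, the 15 largest rises and falls with the same sign on all 6 arrays, up to 8 members of each list by size together with members whose role a sentence turns on, and the 10 largest differences each way. Members and lists were chosen with earlier results of these data known. The alternatives were centring, scaling, dye orientation, filters, oligo choice, gene names, thresholds, other samples in the fit, the replicate block and leaving out a replicate. Testing each oligo and leaving out ZHTc6 replicates were added after seeing the data. Nothing was tested against a set of genes. Some members of the lists are counted but not reported here by name.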

Additional observations from a re-analysis of the deposited data

Results flagged for a closer look

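Differences between time points or lines that passed a test of the difference itself (limma, adjusted p under 0.05) are gathered here as values, with no explanation. No group held enough samples for a search for single samples that stand apart. Between 48 h and 72 h 689 features differed, between 72 h and 96 h 238, and between ZHBTc4 and ZHTc6 cells at 72 h 5026.

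From 48 h to 72 h the log2 ratio over 0 h differed upward most for *Exoc3l4* (3.37), *Slco4a1* (2.33), *Anxa1* (2.13), *Myof* (2.13), *Sct* (2.12), *Myl4* (2.11), *Rsad2* (1.89), *Lgals3* (1.89), *Csf1* (1.86) and *Nrk* (1.84). It differed downward most for *Sox2* (-1.67), *Gli1* (-1.59), *Spp1* (-1.49), *Tet1* (-1.43), *Igfbp2* (-1.41), *Mllt6* (-1.36), *Gata6* (-1.24), *Anp32a* (-1.20), *Col18a1* (-1.18) and *Tmem231* (-1.15).

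From 72 h to 96 h the upward differences were those of *Prkce* (1.61), *Crim1* (1.48), *Serpinb6b* (1.42), *Prl2a1* (1.36), *Cdh3* (1.26), *Igfbp4* (1.25), *Smoc2* (1.19), *Myl4* (1.14), *Rab8a* (1.11) and *Vdr* (1.07). The downward differences were those of *LOC434660* (-1.65), *Zscan4c* (-1.54), *LOC627488* (-1.42), *Fbxo15* (-1.05), *Spp1* (-0.975), *Cbr3* (-0.835), *Mt2* (-0.791), *Bzw2* (-0.777), *Tet1* (-0.754) and *Zfp566* (-0.754).

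Between the lines at 72 h (ZHBTc4 minus ZHTc6) the differences above 0 were led by *Nrk* (5.36), *Rhox6* (5.15), *Igf2* (4.18), *Anxa1* (4.16), *Gata2* (4.16), *Gata3* (4.02), *Dppa1* (3.99), *3830417A13Rik* (3.74), *S100a6* (3.66) and *Ndrg1* (3.34). Those below 0 were led by *Lefty1* (-5.43), *Trh* (-4.30), *Egr1* (-4.06), *Tdgf1* (-3.99), *Sox2* (-3.98), *Cth* (-3.89), *Cpe* (-3.88), *Slc7a3* (-3.59), *Pou5f1* (-3.38) and *Tcl1* (-3.34).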

How the results depend on the processing

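At 72 h the count of 8199 features was within 1.5 times under each alternative except limma's treat against a fold of 1.5 (1642). It fell to 5826 with the ZHBTc4 samples fitted alone, to 5487 at an adjusted p under 0.01 and to 6486 without replicate 3. *Pou5f1* and the 30 genes with the largest changes kept direction and call in each alternative. *Lefty1*, though, went from -3.94 to -0.93 with names from the annotation alone, which gave it another oligo. Of 276 called list members 231 kept the call wherever the threshold stayed the same. Counts of the steps depended on the processing. From 48 h to 72 h (689) they were 275 with arrays brought to 1 spread, 222 with the time point in Cy5, 299 at an adjusted p under 0.01, 26 with treat, 1727 with the replicate block and 38 to 250 without 1 replicate. From 72 h to 96 h (238) they were 14, 74 with Cy5, 57 with Cy3, 43, 7, 1200 with the replicate block and 3 to 8. Between the lines (5026) they were 2773, 944 with treat and 3209 to 5022 without 1 replicate of either line. The block changed no call of the steps from passed to not passed, and at 72 h the fit of all time points gave 7521 with it and 7301 without.

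The balance of some lists turned. Of mesoderm genes 1 was called with Cy5 and 1 with treat, in each case higher. Of neural genes 3 were called with Cy5 and 2 to 3 without 1 replicate, of cell cycle genes 3 with treat and 11 to 15 without 1 replicate, and of iron and redox genes 5 with names from the annotation alone. With those names 2 trophectoderm factors were called, 1 higher and 1 lower, and the counts of most lists fell by over 1.5 times. The causes were not tested, save that treat and the stricter threshold ask for more and a left-out replicate leaves fewer samples. Signal over background is not known from ratios, so that weak spots could not be told from unchanged genes.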
